A study of Mus musculus with 18 samples.

Results

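The comparison described here is that of livers overexpressing LIPA with livers given a GFP vector, both on the FPC diet. Its members were chosen by label. They are the 6 FPC-LIPA livers (mice 31, 33, 34, 36, 37 and 39) and the 6 FPC-GFP livers (mice 11, 12, 13, 16, 19 and 20), so 12 of the 18 RNA-Seq libraries of the series, with 1 library per mouse. All were male C57BL/6J mice that received an adeno-associated virus (AAV8) with the hepatocyte-specific TBG promoter, driving GFP or human LIPA, 1 week before the diet began. The FPC diet is a Western-type diet rich in fructose, palmitate and cholesterol, fed with sugared drinking water for 16 weeks. The other 6 libraries, CON-GFP, came from mice with the GFP vector on a purified control diet, and their levels are given for orientation only. The FPC-GFP livers are also the treated side of the diet comparison, so the 2 comparisons are not independent of each other. The level of each gene is given as CPM, its read count relative to the library's total after TMM scaling. Of 55487 genes in the table, 14620 had enough counts for the quasi-likelihood test of edgeR. A gene was called differentially expressed (DE) when it differed 2-fold or more with an adjusted p (Benjamini-Hochberg) under 0.05. Each log2 fold change is given with its standard error (SE), and a positive value means higher in FPC-LIPA. Separate mice are the replicates.

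LIPA encodes lysosomal acid lipase (LAL), the enzyme that hydrolyzes cholesteryl esters and triglycerides delivered to the lysosome. The freed cholesterol leaves the lysosome through the NPC1 and NPC2 proteins, after which it can be re-esterified, exported or sensed by the SREBP2 and LXR pathways. In fatty liver, resident macrophages (Kupffer cells) are joined by macrophages derived from blood monocytes, some of which take up lipid and express genes such as Trem2 and Gpnmb. The study asked whether more LAL in hepatocytes would change steatosis and inflammation on this diet.

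Mouse Lipa (chromosome 19) was examined first. It had 240, 342 and 406 CPM (lowest, median and highest) in FPC-GFP and 254, 292 and 385 CPM in FPC-LIPA. The ranges overlapped almost fully, and the difference was -0.16 (SE 0.18, adjusted p = 0.513). The vector carried the human gene, which has no row in the mouse gene table, so these values neither check nor contradict the labels. Albumin (Alb), the main secretory product of hepatocytes, lay between 31040 and 61540 CPM in the 12 livers. Xist, which marks female cells, reached at most 0.197 CPM.

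Between 17.8 and 31.1 M reads were counted per FPC-GFP library, and between 16.6 and 37.7 M per FPC-LIPA library. Within FPC-LIPA, libraries 36, 37 and 39 stood apart from libraries 31, 33 and 34. Cytosolic ribosomal protein genes took 6.58, 8.20 and 8.28% of their counts, against 2.19 to 2.98% in the other FPC-LIPA libraries, 1.45 to 1.82% in FPC-GFP and 2.09% ± 0.328 (SD, n = 6) in CON-GFP. Protein-coding genes with up to 1000 exonic bases took 8.50 to 10.6% of their counts, against 4.65 to 5.99% in the other 9 libraries of the comparison. For genes over 8000 bases the shares were 5.82 to 7.11% and 7.72 to 9.50%. Library 37 also carries a sample sheet number far from those of the other FPC-LIPA libraries, and had the lowest depth. The plot of library make-up shows these shares for all livers. Values without libraries 36, 37 and 39 are given beside most of the lists and genes below, and the part that RNA quality or library preparation plays in the results was not tested.

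**Figure D1:**
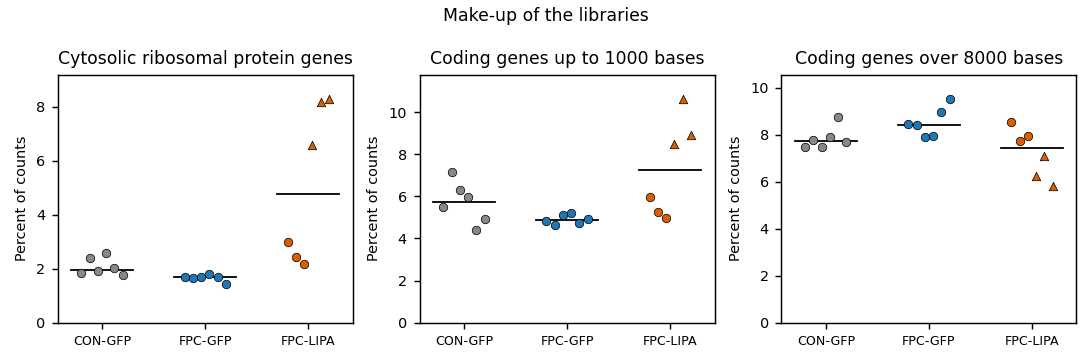
Percent of counts taken in each library (1 point per mouse) by cytosolic ribosomal protein genes (left), protein-coding genes with up to 1000 exonic bases (middle) and those over 8000 bases (right), by group, with a line at the median. FPC-LIPA 36, 37 and 39 are drawn as triangles; their ribosomal protein share, 6.58 to 8.28%, lies above that of every other library.

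With all 12 libraries, 1671 genes were DE, or 11.4% of those tested. Of these, 1508 were higher in FPC-LIPA (10.3% of genes tested) and 163 were lower (1.11%). The 6 FPC-LIPA livers lay entirely above the 6 FPC-GFP livers for 557 genes (3.81%) and entirely below for 551 genes (3.77%), or 7.58% in all. The median log2 fold change of all genes tested was 0.04. The smallest adjusted p of any gene was 0.0079. Without FPC-LIPA 36, 37 and 39, 116 genes were DE, or 0.761% of 15246 tested (111 higher, or 0.728%, and 5 lower, or 0.0328%), and 98 of them were among the 1671. In that smaller comparison the 1508 genes called higher with 12 libraries had a median of 0.54 in place of 1.49. Leaving out single libraries gave from 856 (without FPC-LIPA 36) to 2612 DE genes (without FPC-LIPA 33).

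Macrophage and other leukocyte genes were higher in the LIPA livers. Of 24 monocyte and recruited macrophage genes tested, 13 rose, against 10.3% of all genes, none fell and 11 were not DE. The median log2 fold change was 1.31 over the list beside 0.04 over all genes. Of 20 lipid-associated macrophage genes, 12 rose and none fell (median 1.10). Of 28 pan-leukocyte genes, 6 rose and none fell (median 0.55). Without libraries 36, 37 and 39 the medians of the 3 lists were 0.86, 0.72 and 0.84, beside 0.01 over all genes, with 2, 3 and 3 of their genes DE. An unadjusted p under 0.05 (edgeR's quasi-likelihood test) was then found for 18, 11 and 25 of their genes. With 12 libraries it was found for 17, 15 and 15. Because whole liver was sequenced, more cells of a type and more RNA per cell cannot be told apart.

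Lyz2, the lysozyme gene of macrophages and monocytes, had 80.3, 108 and 263 CPM in FPC-GFP and 360, 449 and 698 CPM in FPC-LIPA. No FPC-LIPA liver was below any FPC-GFP liver, and the increase was 1.88 (SE 0.30, adjusted p = 0.00844) with 12 libraries and 1.46 (SE 0.30, adjusted p = 0.0418) without 36, 37 and 39. Tyrobp, a signaling adaptor of myeloid receptors, had 20.9, 24.7 and 38.7 CPM in FPC-GFP and 55.7, 93.0 and 177 CPM in FPC-LIPA, again without overlap (1.86, SE 0.30, adjusted p = 0.00844; 1.18, SE 0.21, adjusted p = 0.0279 without the 3). Cyba, a subunit of the phagocyte NADPH oxidase, had 9.84, 13.1 and 17.2 CPM in FPC-GFP and 29.4, 53.5 and 81.9 CPM in FPC-LIPA. It rose by 2.02 (SE 0.27, adjusted p = 0.0079), and by 1.38 (adjusted p = 0.0111) without the 3 libraries.

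Ptprc, which encodes the leukocyte surface protein CD45, had 6.04, 8.31 and 12.8 CPM in FPC-GFP and 14.5, 20.1 and 76.5 CPM in FPC-LIPA. The groups did not overlap, but library 37 alone supplied the value of 76.5, and the next highest was 22.4 CPM. Ptprc rose by 1.67 (SE 0.38, adjusted p = 0.0159), and by 1.14 (SE 0.21, adjusted p = 0.0325) without 36, 37 and 39. The plot of macrophage and leukocyte genes by library shows that the circles of FPC-LIPA 31, 33 and 34 alone lay above all FPC-GFP livers for each gene drawn but Clec7a.

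**Figure D2:**
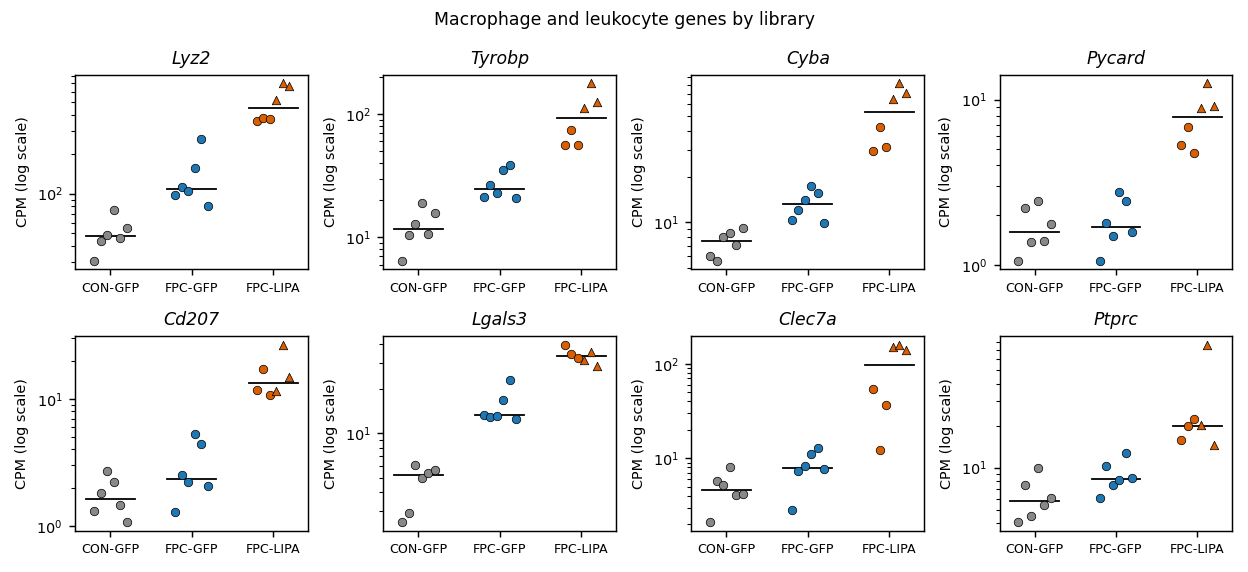
CPM (log scale) of 8 macrophage and leukocyte genes in each library, 1 point per mouse, with a line at the group median; triangles are FPC-LIPA 36, 37 and 39. The FPC-LIPA livers lay above every FPC-GFP liver for each gene but Clec7a, for which FPC-LIPA 33 (12.2 CPM) fell below the highest FPC-GFP liver (12.7 CPM).

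Among genes of lipid-associated macrophages, Lgals3 (galectin-3) had 12.5, 13.2 and 23.0 CPM in FPC-GFP and 28.6, 33.3 and 39.6 CPM in FPC-LIPA. Its increase was 1.14 (SE 0.18, adjusted p = 0.00842) with all libraries and 1.22 (SE 0.19, adjusted p = 0.0187) without the 3 that stood apart. Clec7a, the beta-glucan receptor dectin-1, had 2.83, 7.97 and 12.7 CPM in FPC-GFP and 12.2, 97.3 and 159 CPM in FPC-LIPA. It rose by 3.47 (SE 0.55, adjusted p = 0.00842), and by 2.05 (adjusted p = 0.0421) without the 3 libraries. Trem2, a lipid receptor of macrophages, had 1.09, 2.36 and 5.07 CPM in FPC-GFP and 4.14, 8.20 and 15.9 CPM in FPC-LIPA (1.76, SE 0.41, adjusted p = 0.0167). Gpnmb, a lysosomal glycoprotein of the same cells, had 2.00, 4.47 and 11.4 CPM in FPC-GFP and 8.85, 18.4 and 27.8 CPM in FPC-LIPA (1.70, SE 0.39, adjusted p = 0.0167). The groups overlapped for both. Their increases without the 3 libraries were 1.69 and 1.90, with adjusted p = 0.0867 and 0.0586. Spp1, the osteopontin gene, differed by 0.36 (SE 0.41, adjusted p = 0.528).

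Of 19 genes of resident Kupffer cells tested, 3 rose (Adgre1, Clec1b and Xlr), 1 fell (Cd163, named after its value was seen) and 15 were not DE. Over all genes tested, 10.3% rose and 1.11% fell. The fold change was above 0 for 16 of the 19, with a median of 0.49. Without libraries 36, 37 and 39, 2 were higher (Adgre1 and Cd5l), no gene was lower, and the median was 0.58. Adgre1, the F4/80 gene of mature macrophages, had 14.8, 16.1 and 27.9 CPM in FPC-GFP and 23.1, 43.4 and 160 CPM in FPC-LIPA. It rose by 1.77 (SE 0.40, adjusted p = 0.0152; 1.35, SE 0.28, adjusted p = 0.0418 without the 3), and library 37 held the highest value. Clec4f, a lectin found on Kupffer cells, had 122, 135 and 166 CPM in FPC-GFP and 154, 204 and 218 CPM in FPC-LIPA. Its difference of 0.49 (SE 0.16, adjusted p = 0.0418) was below the fold minimum. Timd4, a marker of long-resident Kupffer cells, differed by 0.95 (SE 0.38, adjusted p = 0.0768). Cd163, the hemoglobin scavenger receptor, fell by 1.09 (SE 0.37, adjusted p = 0.0482), from 6.60 to 15.1 CPM in FPC-GFP to between 1.68 and 9.03 CPM in FPC-LIPA, and was not DE without the 3 libraries (-1.54, SE 0.37, adjusted p = 0.0651). Cd207 (langerin), chosen after its values were seen, had 1.28, 2.36 and 5.27 CPM in FPC-GFP and 10.7, 13.3 and 26.7 CPM in FPC-LIPA without overlap. It rose by 2.38 (SE 0.34, adjusted p = 0.0079), and by 2.15 (SE 0.35, adjusted p = 0.0214) without the 3 libraries.

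Of 23 chemokine genes tested, 7 rose, against 10.3% of all genes, and none fell (median 0.74). Without libraries 36, 37 and 39 only Ccl6 of this list was DE, and the median was 0.64. Ccl6 had 7.69, 11.9 and 14.0 CPM in FPC-GFP and 16.1, 36.5 and 84.7 CPM in FPC-LIPA, and rose by 1.91 (SE 0.33, adjusted p = 0.00966; 1.16, SE 0.22, adjusted p = 0.0333 without the 3). Cxcl16, the ligand of CXCR6, had 11.5, 13.2 and 16.7 CPM in FPC-GFP and 20.9, 28.2 and 42.4 CPM in FPC-LIPA, and rose by 1.13 (SE 0.19, adjusted p = 0.00954). Its difference without the 3 was 0.84 (SE 0.15, adjusted p = 0.0302), under the fold minimum. In both cases, with all libraries, the groups did not overlap. Ccl2, the main attractant of monocytes, differed by 0.52 (SE 0.31, adjusted p = 0.213). Of 15 chemokine receptors, 7 rose and none fell (median 1.23), among them Ccr2, the receptor of CCL2, with 1.69, 2.35 and 4.12 CPM in FPC-GFP and 3.70, 7.26 and 9.48 CPM in FPC-LIPA (1.42, SE 0.30, adjusted p = 0.0136; 1.21, SE 0.33, adjusted p = 0.0936 without the 3). No chemokine receptor was DE by edgeR's quasi-likelihood test without the 3 libraries, where 7 of 16 tested had an unadjusted p under 0.05 and the median was 0.76.

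Of 29 cytokine and inflammasome genes, 5 rose, against 10.3% of all genes, and none fell (median 0.60). Without the 3 libraries 2 were DE (Pycard and Aim2), and the median was 0.48. The 5 included the inflammasome adaptor Pycard, with 1.06, 1.69 and 2.77 CPM in FPC-GFP and 4.73, 7.85 and 12.5 CPM in FPC-LIPA (2.08, SE 0.29, adjusted p = 0.0079; 1.60, adjusted p = 0.0269 without the 3 libraries). The inflammatory caspase genes Casp1 and Casp4 rose by 1.42 and 1.88, and had adjusted p of 0.0762 and 0.0734 without the 3. Il1b differed by 1.36 (SE 0.47, adjusted p = 0.0523). Tnf had too few counts to be tested. Of 14 genes of MHC class II and costimulation, 3 rose and none fell (median 0.71), including Cd86, a costimulatory ligand, with 3.58, 4.10 and 5.19 CPM in FPC-GFP and 7.15, 16.2 and 37.7 CPM in FPC-LIPA (2.15, SE 0.34, adjusted p = 0.00842; 1.25, SE 0.19, adjusted p = 0.0184 without the 3). Cd86 was the single gene of that list DE without the 3 libraries, with a list median of 0.95. Of 34 genes of leukocyte adhesion and extravasation, 9 rose and none fell (median 0.47), against 4 higher, Cyba and Cd44 among them, and a median of 0.80 without the 3. Of 25 genes of Toll-like receptors and adaptors, 5 rose and none fell (median 0.21). None of this list was DE by edgeR's quasi-likelihood test without the 3, where 12 had an unadjusted p under 0.05 and the median was 0.43.

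Lymphocyte genes were low in whole liver. Of 18 B cell genes, 5 rose, against 10.3% of all genes, and none fell (median 1.04). Without the 3 libraries the B cell median was 1.35 and none was DE. Cd79b, part of the B cell receptor, had 0.530 to 2.44 CPM in FPC-GFP and 2.98 to 9.95 CPM in FPC-LIPA (1.68, SE 0.38, adjusted p = 0.0153). Of 16 T cell genes, 5 rose (median 0.75), while Cd3e differed by 0.88 (SE 0.59, adjusted p = 0.27). Of 8 natural killer and cytotoxic genes, 4 rose (median 1.42), with the granzyme gene Gzma at 0.120 to 0.512 CPM in FPC-GFP and 0.535 to 3.81 CPM in FPC-LIPA (2.98, SE 0.56, adjusted p = 0.011). Of 4 neutrophil genes tested, 3 rose (median 2.35), and 11 others of that list, Ly6g and Elane included, had too few counts. In none of the 4 lists did a gene fall, and without libraries 36, 37 and 39 no gene of these 4 lists was DE by edgeR's quasi-likelihood test, although 16 B cell, 9 T cell, 3 natural killer and 3 neutrophil genes had an unadjusted p under 0.05.

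Of 41 interferon-stimulated genes, 2 rose (Ifi44 and Xaf1) and none fell, with a median of 0.10. Of 35 fibrosis and stellate cell genes, 4 rose, a share near the 10.3% of all genes, and none fell (median 0.14). Without libraries 36, 37 and 39 no gene of either list was DE by edgeR's quasi-likelihood test. At an unadjusted p under 0.05 there were then 12 interferon-stimulated and 10 fibrosis genes, with medians of 0.06 and 0.30. Sparc, a matrix glycoprotein, had 60.2, 80.4 and 84.3 CPM in FPC-GFP and 134, 170 and 209 CPM in FPC-LIPA without overlap (1.14, SE 0.17, adjusted p = 0.00842). Without the 3 libraries its difference was 0.87 (SE 0.13, adjusted p = 0.0159), under the fold minimum. Col3a1 rose by 1.70 (SE 0.40, adjusted p = 0.0174; 0.73, adjusted p = 0.0714 without the 3), whereas Col1a1, the main collagen gene, differed by -0.19 (SE 0.32, adjusted p = 0.679) and Timp1 by 1.27 (SE 0.44, adjusted p = 0.0517). Lists of other cells of the liver gave 2 increases among 20 sinusoidal endothelial genes (median 0.17), none among 11 cholangiocyte genes (median 0.09, 1 with an unadjusted p under 0.05, none DE by DESeq2), and 2 increases and 2 decreases among 46 hepatocyte genes (median -0.24). Without the 3 libraries no gene of these 3 lists was DE by edgeR's quasi-likelihood test, and 5, 0 and 10 genes had an unadjusted p under 0.05. The summed hepatocyte genes ranged from 121900 to 170700 CPM in FPC-GFP and from 108000 to 156500 CPM in FPC-LIPA.

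**Figure D3:**
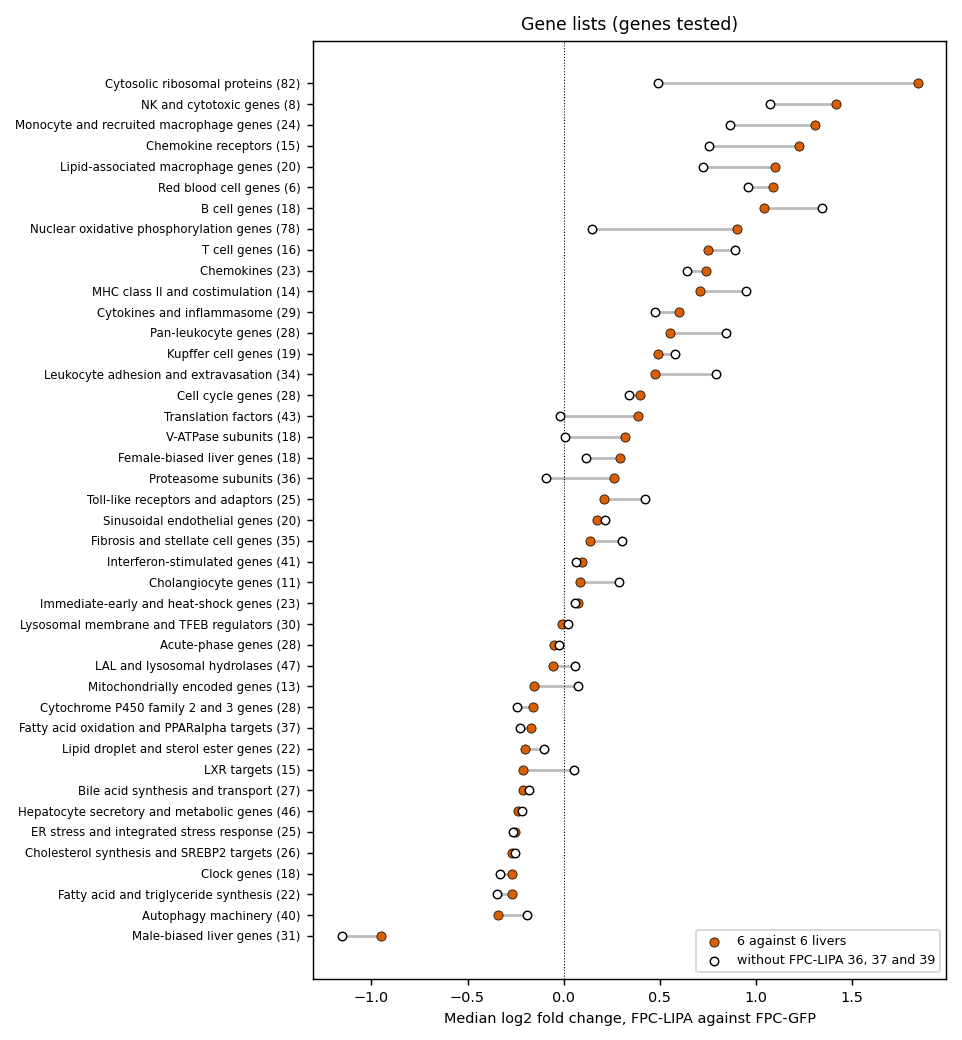
Median log2 fold change (FPC-LIPA against FPC-GFP) of the genes tested in each list, with all 12 libraries (filled) and without FPC-LIPA 36, 37 and 39 (open); the number of genes tested is in parentheses, and lists with under 6 are not drawn. Cytosolic ribosomal protein genes moved from 1.84 to 0.49 and oxidative phosphorylation genes from 0.90 to 0.15, while the monocyte, lipid-associated macrophage, Kupffer cell and pan-leukocyte lists stayed above 0.4 and male-biased liver genes lay at -0.95 and -1.15. The libraries left out were those with the highest ribosomal protein share, so the move of that list follows from their choice.

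Among the genes called lower, several are expressed more in male than in female liver, a pattern set by pulsed growth hormone. Of 31 male-biased liver genes, 13 fell, against 1.11% of all genes tested, 2 rose (Mup20 and Serpina12) and 16 were not DE, with a median of -0.95. Without the 3 libraries 3 were lower, none was higher and the median was -1.15. With sample sheet numbers 59 to 68, which leaves out FPC-GFP 20 and FPC-LIPA 37, 1 was lower and the median was -0.49. This list took 3.32% of counts in FPC-GFP 20 and 1.04 to 1.74% in the other FPC-GFP libraries. In FPC-LIPA it took 0.80 to 3.93%. Cyp4a12a, a fatty acid hydroxylase (chromosome 4), had 213, 307 and 404 CPM in FPC-GFP and 40.6, 96.6 and 161 CPM in FPC-LIPA. It fell by 1.60 (SE 0.32, adjusted p = 0.0121), and the difference without 36, 37 and 39 was -1.12 (SE 0.22, adjusted p = 0.035). Its close copy Cyp4a12b, with which it may share reads, had 16.0, 25.4 and 51.5 CPM in FPC-GFP and 1.73, 6.95 and 9.96 CPM in FPC-LIPA, and fell by 2.13 (SE 0.40, adjusted p = 0.011; -1.59, SE 0.35, adjusted p = 0.0479 without the 3). Cyp2d9, a steroid hydroxylase, had 764, 953 and 1445 CPM in FPC-GFP and 138, 389 and 477 CPM in FPC-LIPA, and fell by 1.43 (SE 0.27, adjusted p = 0.011), with -1.15 (SE 0.20, adjusted p = 0.0279) without the 3 libraries. The groups did not overlap for these 3 genes, and they are 3 of the 5 genes called lower in the smaller comparison.

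Other male-biased genes fell from levels that differed widely among the FPC-GFP livers. Serpina1e, a serine protease inhibitor, had 39.6, 238 and 2111 CPM in FPC-GFP and 19.3, 32.5 and 41.3 CPM in FPC-LIPA, and fell by 4.27 (SE 0.85, adjusted p = 0.0122), but the groups overlapped and the adjusted p was 0.11 without the 3 libraries. Hsd3b5 and Mup7, chosen after their values were seen, differed by -5.04 and -4.77, with SE of 1.21 and 1.19 and adjusted p of 0.018 and 0.0195. Their adjusted p without the 3 libraries was 0.163 and 0.0883. Mup20 went the other way, with 1578, 2440 and 3545 CPM in FPC-GFP and 2264, 9145 and 29710 CPM in FPC-LIPA (2.26, SE 0.52, adjusted p = 0.0159). Without libraries 36, 37 and 39 its difference was 0.73 (SE 0.31, adjusted p = 0.232). The major urinary protein genes are near-identical copies, so their counts are uncertain. Of 18 female-biased genes tested, 1 rose (Hao2), against 10.3% of all genes, and none fell (median 0.29), and 10 others had too few counts. The plot of genes lower in FPC-LIPA shows the values of each liver.

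**Figure D4:**
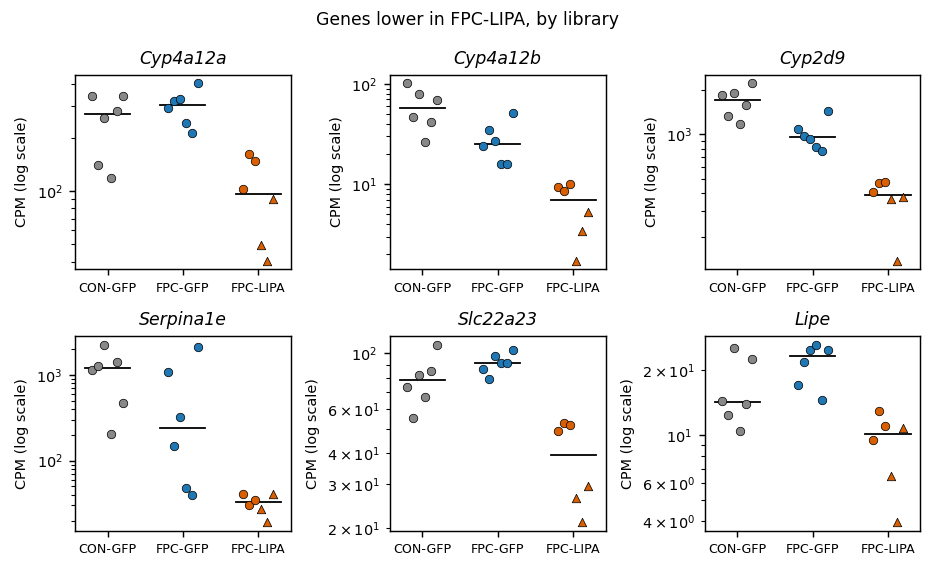
CPM (log scale) of 6 genes called lower in FPC-LIPA, 1 point per mouse, with a line at the group median; triangles are FPC-LIPA 36, 37 and 39. For Cyp4a12a, Cyp4a12b, Cyp2d9, Slc22a23 and Lipe all 6 FPC-LIPA livers lay below all 6 FPC-GFP livers, whereas for Serpina1e the lowest FPC-GFP liver (39.6 CPM) lay below the highest FPC-LIPA liver (41.3 CPM).

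Among protein-coding genes that averaged 5 CPM or more and whose groups did not overlap, the 12 largest decreases, from -2.13 to -1.21, included Cyp4a12b, Cyp4a12a, Srm, Cyp2d9, Plec, Slc6a9, Extl1, Dpy19l3, Slc22a23, Lipe and Natd1. Slc22a23, an organic ion transporter family member, had 78.8, 91.3 and 103 CPM in FPC-GFP and 21.2, 39.1 and 52.5 CPM in FPC-LIPA (-1.25, SE 0.23, adjusted p = 0.011), and its difference was -0.84 (adjusted p = 0.0184) without the 3 libraries. Lipe, the cytosolic hormone-sensitive lipase, had 14.6, 23.3 and 26.3 CPM in FPC-GFP and 3.97, 10.1 and 12.9 CPM in FPC-LIPA, and fell by 1.23 (SE 0.26, adjusted p = 0.0136). Its difference without the 3 was -0.94 (SE 0.20, adjusted p = 0.0479), under the fold minimum. It was the only gene called among 22 tested genes of lipid droplets and sterol esters (median -0.20). Of all genes tested, 11.4% were called, and 1.11% were called lower. In the same list Plin2, which coats lipid droplets, differed by -0.64 (SE 0.30, adjusted p = 0.128).

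Genes of the lysosome, the compartment in which LAL acts, were examined in 3 lists, beside 11.4% of all genes called. The share called was below that of all genes for hydrolases, near it for the lysosomal membrane and above it for the V-ATPase. Of 47 genes of LAL and other lysosomal hydrolases, 2 rose, Asah1 among them, none fell and 45 were not DE, with a median of -0.05. Asah1, an acid ceramidase, had 20.2 to 30.3 CPM in FPC-GFP and 31.8 to 132 CPM in FPC-LIPA, with the highest value in library 37 (1.19, SE 0.30, adjusted p = 0.0206), and its difference was 0.51 (adjusted p = 0.11) without the 3 libraries. Of 30 genes of the lysosomal membrane and its TFEB regulators, 3 rose (Lamp2, Cd63 and Lamtor5, the last named after its value was seen) and none fell (median -0.01). Of 18 V-ATPase genes, 3 rose and none fell (median 0.32). Without the 3 libraries no V-ATPase gene was DE and their median was 0.01. For the 2 cholesterol carriers, Npc1 had 91.4, 99.2 and 114 CPM in FPC-GFP and 45.2, 65.3 and 74.7 CPM in FPC-LIPA (-0.66, SE 0.16, adjusted p = 0.0173), and Npc2 had 65.05, 73.1 and 81.2 CPM in FPC-GFP and 81.3, 119 and 156 CPM in FPC-LIPA (0.72, SE 0.17, adjusted p = 0.0167). Both were without overlap, in opposite directions and under the fold minimum, and their adjusted p without the 3 libraries was 0.0548 and 0.0831. Of 40 autophagy genes, 2 rose (Atg10 and Atg4a), 1 fell (Atg9a) and 37 were not DE (median -0.34). Atg4a and Atg9a were named after their values were seen. The fold change was below 0 for 29 of the 40. For 9 of them all FPC-LIPA livers lay below all FPC-GFP livers, against 3.77% of all genes tested, and for none above. Ulk1, the kinase that starts autophagy, differed by -0.58 (SE 0.15, adjusted p = 0.0228) and Atg5 by 0.79 (SE 0.25, adjusted p = 0.0384). Without the 3 libraries no gene of the hydrolase, lysosomal membrane or autophagy lists was DE by edgeR's quasi-likelihood test. At an unadjusted p under 0.05 there were then 11, 6 and 10, and the medians were 0.06, 0.02 and -0.19.

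Of 26 genes of cholesterol synthesis and SREBP2 targets, none was DE by edgeR's quasi-likelihood test, its likelihood ratio test or DESeq2. At an unadjusted p under 0.05 there were 8, and the median was -0.27. Sqle, the squalene epoxidase of this pathway, differed by -0.46 (SE 0.32, adjusted p = 0.291). Of 15 LXR targets, 2 rose (Lpl and Smpdl3a), 1 fell (Lpcat3) and 12 were not DE (median -0.21). Over all genes tested, 10.3% rose and 1.11% fell. The LXR targets not DE included the cholesterol exporters Abca1, at -0.51 (SE 0.23, adjusted p = 0.109), and Abcg1, at 0.27 (SE 0.20, adjusted p = 0.311). Without the 3 libraries the median of the LXR targets was 0.05, and none was DE by edgeR's quasi-likelihood test, with 6 at an unadjusted p under 0.05. Of 22 genes of fatty acid and triglyceride synthesis none was DE by these 3 tests (median -0.27, 8 with an unadjusted p under 0.05), and of 37 genes of fatty acid oxidation 2 rose (Cd36 and Acot2) and none fell (median -0.17). Of 27 bile acid genes, 3 rose and 1, Cyp7b1, fell, while Cyp7a1, the rate-limiting enzyme of bile acid synthesis, differed by 0.23 (SE 0.44, adjusted p = 0.72). No gene of the fatty acid oxidation and bile acid lists was DE by edgeR's quasi-likelihood test without the 3, and 7 and 9 had an unadjusted p under 0.05.

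The most numerous increases by list were among genes of protein synthesis and respiration, and these moved with the libraries that stood apart. Those libraries were set apart by their ribosomal protein and short-gene shares. A smaller ribosomal protein difference without them therefore follows from that choice and is no separate result. Of 82 cytosolic ribosomal protein genes, 59 rose, against 10.3% of all genes, and none fell (median 1.84). Without libraries 36, 37 and 39 only 5 were DE and the median was 0.49. Rpl41 had 321, 452 and 496 CPM in FPC-GFP and 722, 3446 and 10160 CPM in FPC-LIPA (3.42, SE 0.58, adjusted p = 0.00954; 1.49, SE 0.24, adjusted p = 0.0214 without the 3). Of 78 nuclear genes of oxidative phosphorylation, 34 rose and none fell (median 0.90), against none and a median of 0.15 without the 3 libraries, where 24 had an unadjusted p under 0.05 in edgeR's quasi-likelihood test. Of 13 genes of the mitochondrial genome 1 rose, mt-Nd3, and the median was -0.16. Of 36 proteasome genes 6 rose (median 0.26; -0.09 without the 3 libraries), and of 43 translation factor genes 15 rose and 1, Eif4g1, fell (median 0.39; -0.02 without them).

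Fold change followed gene length. Among protein-coding genes, the median was 0.88 for the 275 tested genes with up to 1000 exonic bases, 0.35 for 1375 genes over 1000 and up to 2000 bases, 0.03 for 3996 genes up to 4000, -0.08 for 4915 genes up to 8000 and -0.15 for 2271 genes over 8000. Of the shortest class 40.7% were called higher, and of the longest class 3.61%. Without libraries 36, 37 and 39 the medians ran from 0.25 to -0.08 in the same order. These libraries had been set apart partly by their short-gene share, so a smaller range without them is no separate result. Processed pseudogenes, which are mostly short and resemble the genes they derive from, had a median of 0.61, with 176 of 564 called higher and 6 lower; their counts are uncertain. When the trend on length was removed from each library, 1423 genes were DE.

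**Figure D5:**
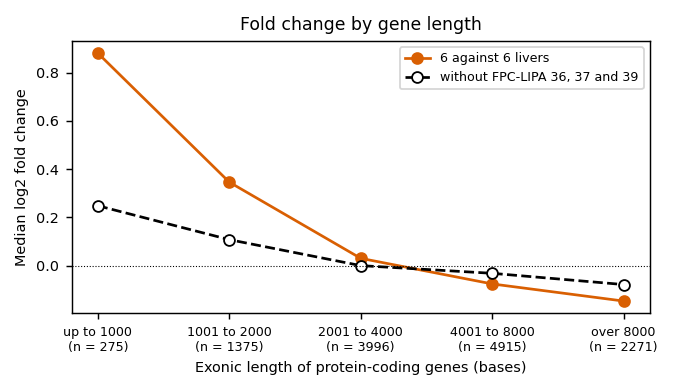
Median log2 fold change (FPC-LIPA against FPC-GFP) of protein-coding genes in 5 classes of exonic length, with all 12 libraries (filled, solid line) and without FPC-LIPA 36, 37 and 39 (open, dashed line); n is the number of genes tested. The median ran from 0.88 in the shortest class to -0.15 in the longest, and from 0.25 to -0.08 without the 3 libraries, which had the highest short-gene shares.

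The 12 largest increases among protein-coding genes, chosen like the decreases and with cytosolic ribosomal protein genes left out, had log2 fold changes from 2.67 to 3.44. They were Cops9, Hbb-bs, Leap2, Rps12-ps3, Pet100, Tmsb4x, Atp5e, Saa3, Atp5md, Hbb-bt, Tmem256 and BC028528. Many are short genes, such as Cops9, a subunit of the COP9 signalosome, with 22.1, 35.1 and 39.2 CPM in FPC-GFP and 61.7, 270 and 896 CPM in FPC-LIPA (3.44, SE 0.58, adjusted p = 0.00954; 1.48, adjusted p = 0.0184 without the 3 libraries). Leap2, a liver peptide that blocks the ghrelin receptor, had 54.7, 76.8 and 108 CPM in FPC-GFP and 135, 621 and 1849 CPM in FPC-LIPA (3.23, SE 0.56, adjusted p = 0.00966; 1.69, adjusted p = 0.0421 without the 3). The beta-globin gene Hbb-bs, a product of red cells, had 78.1, 103 and 155 CPM in FPC-GFP and 218, 979 and 2185 CPM in FPC-LIPA (3.33, SE 0.49, adjusted p = 0.0079; 1.90, adjusted p = 0.0111 without the 3). Of 6 red blood cell genes tested 3 rose, against 10.3% of all genes, none fell, and 5 were above 0. Alas2, another marker of red cells, named after its value was seen, went the other way. It differed by -0.61 (SE 0.25, edgeR quasi-likelihood, adjusted p = 0.087). The summed level of that list was 283.9 to 475.8 CPM in FPC-GFP and 520.5 to 2677 CPM in FPC-LIPA, without overlap. The part of blood in the increases of leukocyte genes was not tested.

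A different set of genes separated FPC-LIPA 31, 33, 34 and 39 from the rest of the group. The 3 genes annotated as microRNAs in GENCODE M21 (GRCm38), Gm23935, Gm24187 and Gm24270, are printed here because their transcripts are nearly the same, so that a read cannot be placed on 1 of them with confidence. Each is 57 bases long. Gm23935 lies at chr16:11144125-11144181 on the plus strand, Gm24187 at chr13:9834469-9834525 and Gm24270 at chr9:56223715-56223771, both on the minus strand. The capital letter marks the single position, counted from 1 at the 5′ end, at which Gm24187 differs from Gm23935 (G11A).
Gm23935: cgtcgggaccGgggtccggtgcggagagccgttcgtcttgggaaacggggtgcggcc
Gm24187: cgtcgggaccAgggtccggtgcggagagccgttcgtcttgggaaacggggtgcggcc
Gm24270: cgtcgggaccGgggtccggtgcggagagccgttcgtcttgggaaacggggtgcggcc
Gm23935, chosen like the other genes of this paragraph after its values were seen, had 5.05, 6.95 and 9.10 CPM in FPC-GFP and 9.21, 26.1 and 43.5 CPM in FPC-LIPA (1.91, SE 0.33, adjusted p = 0.0103), with the lowest FPC-LIPA values, 12.3 and 9.21 CPM, in libraries 36 and 37. Gm24187 had 10.2, 11.3 and 13.6 CPM in FPC-GFP and 9.53, 34.4 and 61.5 CPM in FPC-LIPA (1.56, SE 0.36, adjusted p = 0.0159). Gm24270 had 4.02, 6.48 and 9.53 CPM in FPC-GFP and 3.89, 18.2 and 25.5 CPM in FPC-LIPA (1.27, SE 0.37, adjusted p = 0.0305). Lars2, the mitochondrial leucyl-tRNA synthetase, followed the same order of livers, with 116, 148 and 169 CPM in FPC-GFP and 160, 433 and 668 CPM in FPC-LIPA (1.49, SE 0.32, adjusted p = 0.0141; 1.88, SE 0.19, adjusted p = 0.00136 without 36, 37 and 39). It varied in CON-GFP as well, from 106 to 870 CPM. Whether the reads counted on the genes of this paragraph came from other transcripts was not tested.

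Cyc1 and Tbp were the reference genes used for PCR. After TMM scaling the median of all genes was 0.04, so values near 0 for these 2 genes do not check the scaling. Cyc1 had 224, 257 and 272 CPM in FPC-GFP and 203, 231 and 379 CPM in FPC-LIPA (0.02, SE 0.18, adjusted p = 0.943). Tbp had 8.28, 10.1 and 11.5 CPM in FPC-GFP and 8.32, 10.6 and 13.8 CPM in FPC-LIPA (0.11, SE 0.16, adjusted p = 0.631).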

How the data were processed

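The authors extracted liver RNA, prepared libraries with a stranded or an unstranded Illumina kit (which library had which is not given in the sources used here), trimmed the paired reads, aligned them with HISAT2 2.1.0 to GRCm38 (mm10) and counted them per gene with featureCounts. The deposited values are raw counts, without normalization. Strand setting, annotation release and multi-mapping rule are not given, so antisense genes, paralogs and pseudogenes are uncertain. Of 23 columns, 18 were matched to labels by condition and mouse number and 5, named for another vector, were not used. Gene names and lengths came from GENCODE M21 (55227 genes matched).

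The 12 libraries of both groups were fitted alone in edgeR 4.0.16 (R 4.3.3) with filterByExpr, TMM and the quasi-likelihood test. SE is the log2 fold change divided by the square root of F. Printed CPM used TMM factors over 18 libraries. Counts of libraries within a group differed by a chi-square per degree of freedom from 15.4 to 591.0, far above counting noise. On simulated counts for this comparison, over 14620 genes, 194 of 200 genes changed 4-fold were called, with 8 false calls. Smaller changes, near the fold minimum, were not simulated. The false calls do not give the error of the real comparison, in which some FPC-LIPA libraries stood apart from their group. Figures and tables were made in Python 3.11.15 (matplotlib 3.10.9, pandas 2.3.3, numpy 2.4.6).

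The comparison, the 45 gene lists (1222 genes) and the naming rule were chosen with earlier results of these data known; 4 listed symbols were absent. Genes were named by this rule: Lipa; the 12 largest increases and 12 largest decreases among DE protein-coding genes without overlap that averaged 5 CPM or more, outside the ribosomal list; the 4 smallest p and 2 highest means of each list; and a fixed set of genes of LAL, sterol, autophagy, immune and fibrosis biology. Other genes are marked as chosen after their values were seen; called genes of lists with few calls were named likewise. Some genes that the rule names are not reported here. Alternatives were DESeq2 1.42.0 size factors and Wald test, library size alone, edgeR's likelihood ratio test, other filters and thresholds, all 18 libraries in 1 fit, sample sheet numbers 59 to 68, leaving out libraries, and removal of the length trend.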

Additional observations from a re-analysis of the deposited data

Results flagged for a closer look

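Among 82 groups of 6 livers (38 genes and 3 gene lists, in FPC-GFP and FPC-LIPA), 8 held a liver whose gap to its neighbor was, relative to the group's range, above Dixon's 95% critical value, where chance alone gives about 1 in 20. Of these, 5 were in FPC-LIPA 37. Its value was 76.5 CPM for Ptprc, 160 CPM for Adgre1, 138 CPM for Cyp2d9, 45.2 CPM for Npc1 and 132 CPM for Asah1. The other 3 were Lipa at 385 CPM in FPC-LIPA 34, Adgre1 at 27.9 CPM in FPC-GFP 19 and Cyc1 at 379 CPM in FPC-LIPA 39. Adgre1 was higher by 1.35 (SE 0.28, edgeR quasi-likelihood, adjusted p = 0.0418) without FPC-LIPA 36, 37 and 39.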

How the results depend on the processing

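The number of DE genes depended on the libraries more than on the test. It was 1671 (1508 higher, 163 lower) with 12 libraries, 116 (111 and 5) without FPC-LIPA 36, 37 and 39, and 96 (93 and 3) with sample sheet numbers 59 to 68, which leaves out FPC-GFP 20 and FPC-LIPA 37. Leaving out 1 library gave 856 to 2612 DE genes, 807 to 2052 higher and 49 to 560 lower; the total moved by over 1.5 times without FPC-GFP 11 (1028), 12 (1049) or 20 (1026), or without FPC-LIPA 33 (2612), 36 (856), 37 (902) or 39 (950), and the number lower also without FPC-LIPA 34 (361). Library size alone gave 1016 (892 higher) and moved the median of all genes from 0.04 to -0.09, which turned the sign of the medians of the immediate-early and heat-shock list (to -0.04) and the PCR reference genes (to -0.09). Without a fold minimum 3102 genes passed (1004 lower), and at an adjusted p under 0.01, 53 (52 higher, 1 lower). The other filters, size factors, tests, the joint fit and the length correction gave total counts within 1.5 times. Of 156 named DE genes, 36 stayed DE without FPC-LIPA 36, 37 and 39, and 134 with the length trend removed. In every alternative fit, the changes of threshold not counted, 22 stayed DE. They included Lyz2, Tyrobp, Cyba, Pycard, Cd86, Ccl6, Clec7a and Cyp2d9. Rpl41, Rps14, Cops9, Pet100, Leap2, Tmsb4x, Hbb-bs, Hbb-bt and Lars2 were also among the 22. No named gene that was called changed sign in an alternative fit. Of the 1508 genes called higher, 1489 were above 0 without FPC-LIPA 36, 37 and 39. All 163 genes called lower were below 0 there. Medians of 7 of the 45 lists changed sign without the 3 libraries. No paired analysis was possible because the groups compared share no mouse numbers. The causes of these changes were not tested. Genes under about 1 CPM, such as many lymphocyte genes, rest on few reads.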

Other observations

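Metallothionein Mt2, chosen after its values were seen, fell by 3.27 (SE 1.11, edgeR quasi-likelihood, adjusted p = 0.0484), with adjusted p = 0.26 without FPC-LIPA 36, 37 and 39. It ranged from 3.36 to 307 CPM in FPC-GFP livers and from 2.43 to 14.3 CPM under LIPA, with medians of 5.30 and 4.49 CPM. Of 28 acute-phase genes, 3 rose (Saa1, Saa2 and Saa3), a share near the 10.3% of all genes. In the same list 2 fell (Mt2 and Il6ra), against 1.11% of all genes, and the median was -0.05. None was DE by edgeR's quasi-likelihood test without the 3 libraries, where 7 had an unadjusted p under 0.05. Saa3 had 6.58, 13.5 and 16.9 CPM in FPC-GFP and 23.0, 91.0 and 191 CPM in FPC-LIPA without overlap (2.98, SE 0.54, adjusted p = 0.0107), and its increase without FPC-LIPA 36, 37 and 39 was 1.14 (SE 0.27, adjusted p = 0.0611).

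Of 28 cytochrome P450 genes of families 2 and 3, 3 rose (10.3% of all genes did) and 5 fell (1.11% did), with a median of -0.16. Without FPC-LIPA 36, 37 and 39, Cyp2d9 was the single gene of this list DE, and library size alone gave 1 higher and 2 lower. Cyp2c54 had 9.06 to 106 CPM in FPC-GFP and 6.55 to 21.2 CPM in FPC-LIPA (-2.01, SE 0.46, adjusted p = 0.0157; -1.88, SE 0.61, adjusted p = 0.135 without the 3). Of 25 genes of ER stress, none rose and 1 (Hyou1) fell, and of 23 immediate-early and heat-shock genes, 2 rose and 1 fell. Of 18 clock genes, none was DE by edgeR's quasi-likelihood test or DESeq2, and 2 had an unadjusted p under 0.05.

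Ddx3y, a gene of the mouse Y chromosome chosen after its values were seen, reached 174 CPM in FPC-LIPA 37, whereas the other 11 livers of the comparison lay between 13.8 and 41.9 CPM.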
